A study of Macaca mulatta with 17 samples.

Results

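The HOXC genes of the rhesus macaque were examined in the fetal uterus: HOXC4, HOXC5, HOXC6, HOXC8, HOXC9, HOXC10, HOXC11, HOXC12 and HOXC13. They were taken as the array probes whose description names one of these symbols, and each of the 9 genes had 1 probe, among 16462 distinct gene names on an array of 20217 probes. RNA came from female fetuses of pregnant macaques that ate a daily fruit treat carrying deuterated bisphenol A (BPA, a plastics monomer that binds estrogen receptors) at 400 µg/kg/day, or ethanol vehicle as the control. Treatment began on gestational day 50 for the GD100 group, delivered on day 100, and on gestational day 100 for the GD165 group, delivered between days 165 and 168. There were 5 GD100 control, 5 GD100 BPA-exposed, 4 GD165 control and 3 GD165 BPA-exposed uteri, each on an array of its own. GD100 fetuses were delivered by caesarean section and GD165 fetuses vaginally, so gestational age and mode of delivery cannot be told apart, and stillborn fetuses were not put on arrays. The sample was a frozen piece of uterus running from fundus to cervix, and in such bulk tissue fewer cells of a type and less RNA per cell cannot be told apart. Of 12 markers of the uterus and its embryonic precursor, the Müllerian duct, 11 were well above background on every array, among them ESR1, EMX2 and PAX8, while the probe for the progesterone receptor gene PGR was so on 0 arrays. Across the 17 arrays, on 6 slides, 83.8 to 89.0% of spots were well above background.

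HOX genes encode homeodomain transcription factors that give cells their position along the head-to-tail axis of the embryo. They sit in clusters whose gene order follows that axis, with low-numbered genes active in front of high-numbered ones, and in the female reproductive tract the HOXA genes are the best known for marking oviduct, uterus and cervix. HOXC4, HOXC5 and HOXC6 can be spliced from a common primary transcript, HOXC8, HOXC9 and HOXC10 belong to trunk and lumbar levels, and HOXC11, HOXC12 and HOXC13 lie at the tail end, where HOXC13 is known for hair and nail formation. The RefSeq annotation of the macaque assembly T2T-MMU8v2.0 puts all 9 genes on chromosome 11 in the order HOXC13, HOXC12, HOXC11, HOXC10, HOXC9, HOXC8, HOXC6, HOXC5, HOXC4, with 0 other protein-coding genes between them. The scanner files give the probes in the same order over 109 kb of a chromosome 12, with the HOXC13 probe at chr12:52626485-52626544 and the HOXC4 probe at chr12:52735444-52735503. The file headers name the build rheMac2, but the chromosome number is that of the human cluster, so the build of these coordinates is not settled.

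Each probe is 60 bases long, and its last 30 bases are shown for the 4 genes that varied together across fetuses, to show that these are different sequences from different genes, and for HOXC13, which was seen on a single array. Capitals mark the polyadenylation hexamer AATAAA, searched on the printed strand only.
HOXC6: ccgttctcgaatatttAATAAAactgatac
HOXC8: ctttgtattgtatacgtgagtcatAATAAA
HOXC9: gatattggtgttttagagttagttctaccc
HOXC10: aggaaaaaattaaccagagagggtctgtaa
HOXC13: ctgaatgacgatgtactgaatgcaaaaagg
The hexamer lay in the HOXC6 and HOXC8 probes, 2 of the 9, and in the last 30 bases of 10.9% of all probes on the array. In the files the HOXC6 probe maps to chr12:52710799-52710857, the HOXC8 probe to chr12:52692744-52692797, the HOXC9 probe to chr12:52682885-52682944 and the HOXC10 probe to chr12:52669823-52669883.

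Of the 9 genes, 7 were well above background on all 17 arrays, HOXC13 on 1 array and HOXC12 on 0. Levels are log2 signals, put on a common scale by giving the 75th percentile of every array the same value. They compare fetuses for 1 probe and not the genes with each other, because probes differ in how well they bind. HOXC9 had the widest range of the 7 genes measured on every array, 3.89 on the log2 scale or 14.8-fold between the lowest and the highest uterus. HOXC6, HOXC8 and HOXC10 spanned 4.99-fold, 5.06-fold and 5.05-fold, and HOXC4, HOXC5 and HOXC11 spanned 1.74-fold, 1.59-fold and 1.99-fold.

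**Figure D1:**
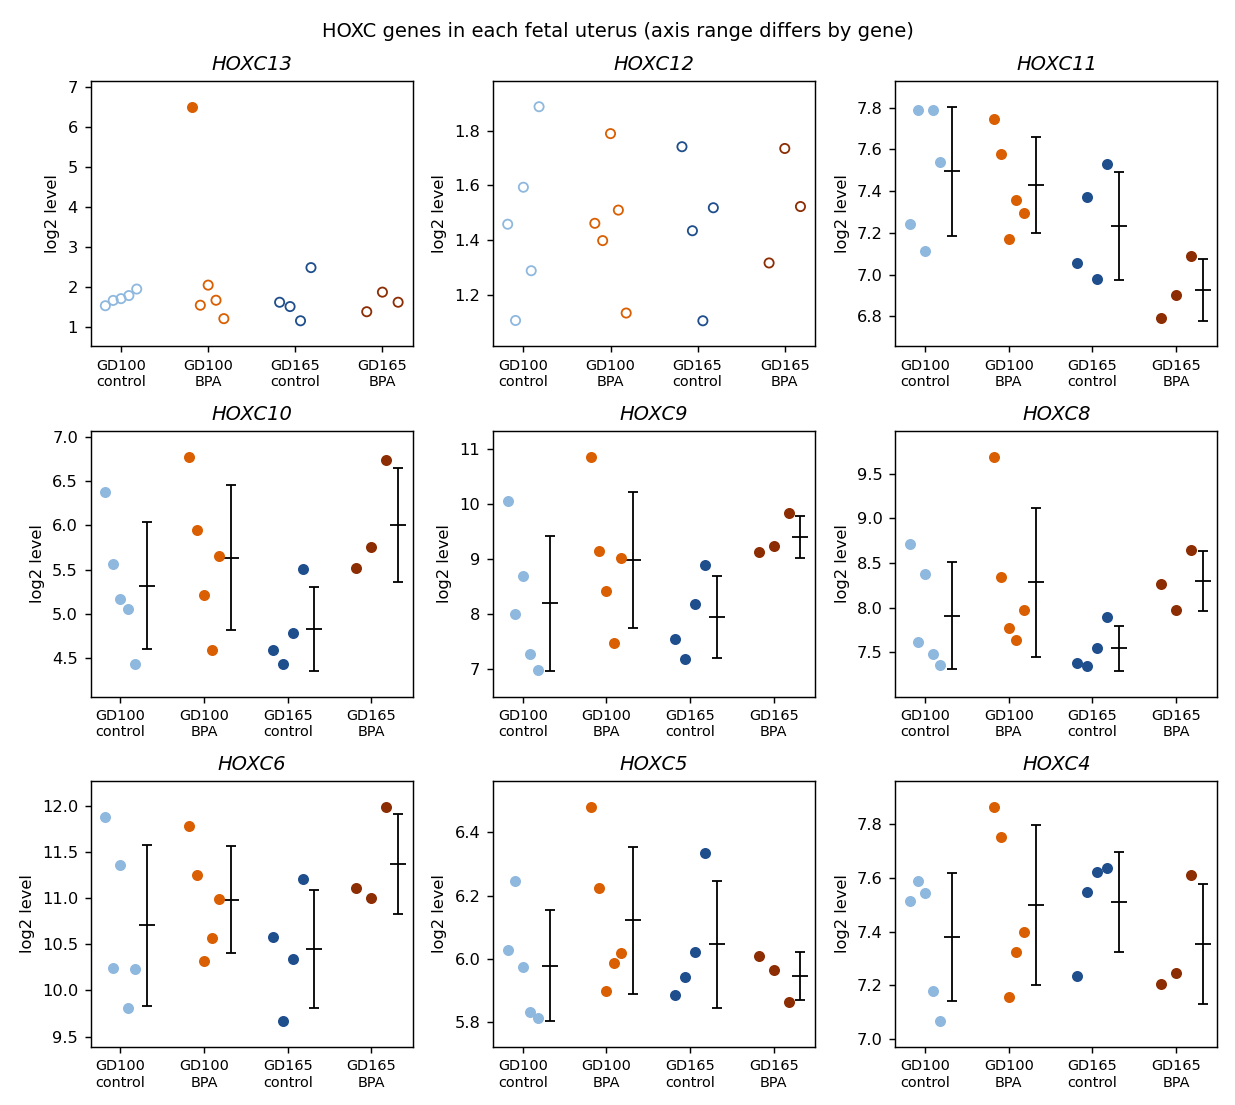
Log2 level of each HOXC gene in each of the 17 fetal uteri, in cluster order from HOXC13 to HOXC4 and by group. Filled points are well above background and open points are not. Black bars give the group mean and SD for the 7 genes measured on every array. HOXC9 runs from 6.97 to 10.86, and HOXC13 is filled on 1 GD100 BPA-exposed array only.

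HOXC9 differed most between fetuses among the 7 genes measured on every array. In GD100 controls, replicates 1 to 5, its log2 levels were 10.05, 7.99, 8.69, 7.27 and 6.97, and in GD100 BPA-exposed replicates 1 to 5 they were 10.86, 9.14, 8.41, 7.48 and 9.02. The GD165 controls, replicates 1, 3, 5 and 6, gave 7.54, 7.18, 8.17 and 8.88, and the GD165 BPA-exposed replicates 3, 4 and 5 gave 9.13, 9.23 and 9.83. At GD165 every BPA-exposed uterus lay above every control, by 0.25 between the nearest values, while at GD100 each group held both high and low fetuses. Its group means were 8.19 ± 1.23 (SD, n = 5) in GD100 controls, 8.98 ± 1.24 (n = 5) in GD100 BPA-exposed, 7.95 ± 0.75 (n = 4) in GD165 controls and 9.40 ± 0.38 (n = 3) in GD165 BPA-exposed uteri.

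HOXC10, its neighbour toward the tail end, ordered the fetuses in nearly the same way. Its log2 levels were 6.37, 5.56, 5.17, 5.05 and 4.44 in GD100 controls and 6.77, 5.94, 5.22, 4.59 and 5.65 in GD100 BPA-exposed fetuses. They were 4.60, 4.43, 4.78 and 5.50 in GD165 controls and 5.52, 5.76 and 6.74 in GD165 BPA-exposed fetuses. The GD165 groups touched without overlapping, the lowest BPA-exposed value lying 0.02 above the highest control. The means were 5.32 ± 0.71 (SD, n = 5), 5.63 ± 0.81 (n = 5), 4.83 ± 0.47 (n = 4) and 6.00 ± 0.64 (n = 3) in the same order. In GD165 control replicate 1 a spot of this probe was marked as an outlier by the scanning software, the only such spot among 306 spots of the 9 probes. It read 815 against 23.1 for the other spot and was left out, so the level of that uterus rests on 1 spot.

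HOXC8 had log2 levels of 8.71, 7.62, 8.38, 7.48 and 7.36 in GD100 controls and 9.69, 8.34, 7.77, 7.63 and 7.98 in GD100 BPA-exposed fetuses. At GD165 it gave 7.38, 7.35, 7.55 and 7.90 in controls and 8.26, 7.97 and 8.65 in BPA-exposed fetuses. The GD165 groups again did not overlap, the nearest values being 7.90 and 7.97, and the GD100 groups did. HOXC6 gave 11.88, 10.24, 11.36, 9.81 and 10.23 in GD100 controls and 11.79, 11.26, 10.32, 10.57 and 10.996 in GD100 BPA-exposed fetuses. Its GD165 levels were 10.58, 9.67, 10.34 and 11.21 in controls and 11.11, 11.004 and 11.99 in BPA-exposed fetuses. Here the GD165 groups overlapped, since control replicate 6 lay above BPA-exposed replicates 3 and 4.

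The first question was whether exposure to BPA from day 100 was accompanied by a difference in these genes at GD165. In the limma fit to all probes, HOXC9 was 1.45 ± 0.74 (SE) higher on the log2 scale in BPA-exposed uteri, or 2.74-fold, with a 95% interval of -0.13 to 3.04 and an adjusted p of 0.61. HOXC10 was 1.18 ± 0.49 higher, or 2.26-fold, with an interval of 0.13 to 2.23 and an adjusted p of 0.533. HOXC6 and HOXC8 were 0.92 ± 0.49 and 0.75 ± 0.43 higher, with adjusted p of 0.625 and 0.649. These differences did not pass the threshold of 0.01 on the adjusted p, and 0 of the 9 genes were called, against 0.0% of all probes. At an unadjusted p under 0.05, HOXC10 alone of the 9 was called, against 8.61% of all probes. HOXC11, HOXC5 and HOXC4 differed by -0.31 ± 0.19, -0.10 ± 0.15 and -0.16 ± 0.18, so the larger differences lay in the middle of the cluster and the values at both ends were near or below 0.

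The BPA-exposed and control groups did not overlap at GD165 for 3 of the 9 genes, HOXC8, HOXC9 and HOXC10, all higher in BPA-exposed uteri, and 2.07% of all probes did the same. The two-sided exact permutation test gave p = 0.0571 for each, the smallest value that 3 against 4 fetuses can give. The 3 genes follow each other across fetuses and were not separate pieces of evidence. For HOXC10 the lack of overlap was found with the outlier spot of GD165 control replicate 1 left out. The study selected HOXC6, HOXC8, HOXC9 and HOXC10 on these same arrays, so their direction is not independent evidence either. For HOXC9 the study also reported real-time RT-PCR, with higher levels in GD165 BPA-exposed uteri than in controls. Those measurements were not re-examined here. Over the 7 genes measured on every array, 4 were higher and 3 lower in BPA-exposed uteri, with a median log2 difference of 0.75 against -0.02 over all probes. A test with the scanner's spot error as its only error, which leaves out the spread between fetuses, called HOXC6, HOXC8, HOXC9 and HOXC10 as higher and HOXC11 as lower, and called 23.9% of all probes. The same test called 4 of the 9 genes for BPA at GD100, 5 and 4 with age in controls and in BPA-exposed fetuses, and 4 in the interaction, against 16.6%, 47.8%, 50.8% and 23.1% of all probes.

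The GD165 difference of HOXC10, whose signal was dim, depended on the outlier spot and on the background correction. It was 0.53 with the outlier spot kept and 0.36 with normexp background correction, against 1.18 without either. On the only slide that held both GD165 groups, with BPA-exposed replicates 3 and 4 and control replicate 1, the log2 differences were 1.64 for HOXC9, 1.04 for HOXC10, 0.74 for HOXC8 and 0.47 for HOXC6. That control is the array with the outlier spot. Its HOXC10 level rests on the other spot alone, and the value of 1.04 depends on leaving the outlier out.

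**Figure D2:**
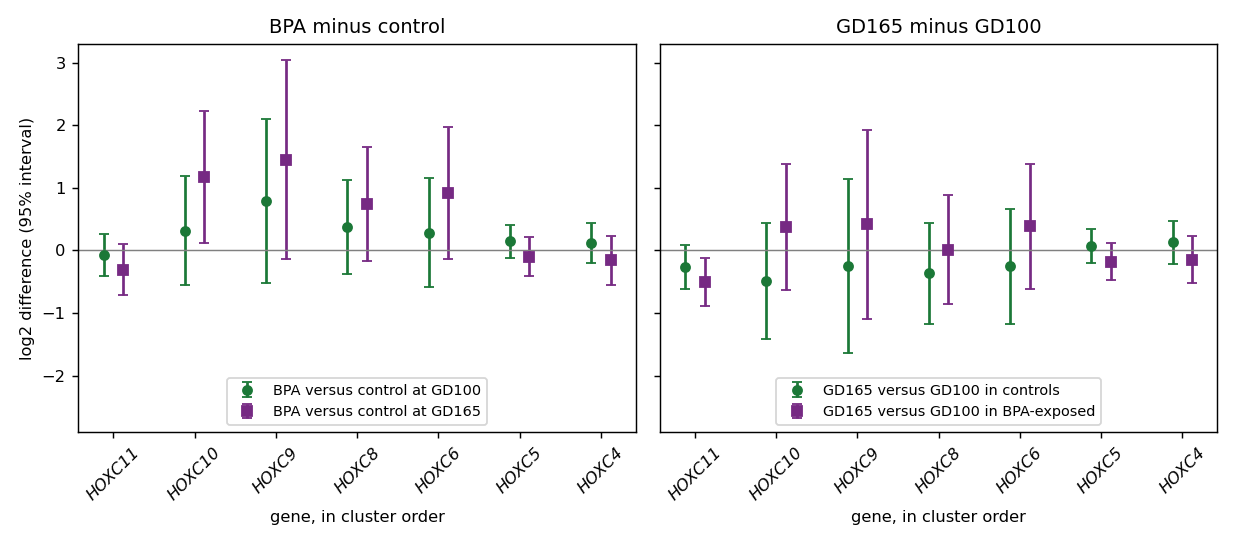
Log2 difference with its 95% interval from limma for the 7 HOXC genes measured on every array, in cluster order, for BPA against control at each age (left) and GD165 against GD100 within each treatment (right). At GD165 the BPA difference is largest for HOXC9, at 1.45, and the values of HOXC11, HOXC5 and HOXC4 lie below 0. All intervals include 0 except those of HOXC10 for BPA at GD165 and of HOXC11 with age in BPA-exposed fetuses.

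At GD100, after exposure from day 50, the same genes had smaller differences between the groups. HOXC9 was 0.79 ± 0.62 (SE) higher in BPA-exposed uteri, HOXC8 0.37 ± 0.35, HOXC10 0.32 ± 0.41 and HOXC6 0.28 ± 0.41 higher on the log2 scale. HOXC5, HOXC4 and HOXC11 differed by 0.14 ± 0.12, 0.12 ± 0.15 and -0.07 ± 0.16. In this comparison 0 of the 9 genes were called by limma, with an adjusted p of at least 0.9999 for all 9, and again 0.0% of all probes were called. At an unadjusted p under 0.05 the counts were 0 of 9 and 3.79% of all probes. The groups overlapped for all 9 genes, while 0.782% of all probes did not overlap. Single fetuses moved these values either way. Without BPA-exposed replicate 1 HOXC9, HOXC8 and HOXC10 differed by 0.32, 0.019 and 0.032, and without control replicate 1, the highest control for all 4 genes, HOXC9, HOXC8, HOXC10 and HOXC6 differed by 1.25, 0.57, 0.58 and 0.57. Without control replicate 4 HOXC6 differed by 0.055. On the 3 slides that held both GD100 groups, the HOXC9 difference was -0.25, 1.03 and 2.17.

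The interaction term asked whether the BPA difference itself changed with age. On the log2 scale it was 0.86 ± 0.64 (SE) for HOXC10, 0.66 ± 0.97 for HOXC9, 0.64 ± 0.64 for HOXC6 and 0.38 ± 0.55 for HOXC8. None of the 9 genes (0) passed, against 0.0% of all probes. The smallest adjusted p among the genes was 0.783 in limma, and 0 of them had an unadjusted p under 0.05, against 7.83% of all probes. The interval of the HOXC9 term ran from -1.39 to 2.72, so neither a smaller nor a much larger difference at GD165 than at GD100 could be told from equal ones.

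Between GD100 and GD165 the uterus as a whole changed widely, with 11.5% of all probes called in controls and 9.68% in BPA-exposed fetuses, but 0 of the 9 HOXC genes were called in either. At an unadjusted p under 0.05, 0 of them in controls and HOXC11 in BPA-exposed fetuses were called by limma, against 33.1% and 34.5% of all probes. The groups of the 2 ages overlapped for all 9 genes in controls, where 19.4% of all probes did not overlap. In controls the log2 difference, GD165 minus GD100, was -0.49 ± 0.43 (SE) for HOXC10 and -0.37 ± 0.38 for HOXC8. It was -0.26 ± 0.17 for HOXC11, -0.25 ± 0.43 for HOXC6 and -0.25 ± 0.65 for HOXC9. The direction was not stable, since HOXC10 differed by 0.15 with the outlier spot kept, and HOXC9 and HOXC6 by 0.22 and 0.039 without GD100 control replicate 1, and both lay just above 0 without GD165 control replicate 3. HOXC4 and HOXC5 differed by 0.13 ± 0.16 and 0.07 ± 0.13. In BPA-exposed fetuses HOXC9, HOXC6, HOXC10 and HOXC8 differed by 0.42 ± 0.71, 0.38 ± 0.47, 0.37 ± 0.47 and 0.01 ± 0.41. The intervals of HOXC9 reached from -1.64 to 1.15 in controls and from -1.10 to 1.93 in BPA-exposed fetuses. This leaves room for changes of more than 2-fold in either direction.

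HOXC11 was the member nearest to a call with age. Its log2 levels were 7.24, 7.79, 7.11, 7.79 and 7.54 in GD100 controls, 7.75, 7.58, 7.17, 7.36 and 7.29 in GD100 BPA-exposed, 7.06, 7.37, 6.98 and 7.53 in GD165 controls, and 6.79, 6.90 and 7.09 in GD165 BPA-exposed fetuses. All 3 GD165 BPA-exposed uteri lay below all 5 GD100 BPA-exposed uteri, which 27.2% of all probes did in either direction, and the controls of the 2 ages overlapped. The difference in BPA-exposed fetuses was -0.50 ± 0.18 (SE), with an adjusted p of 0.0623 in limma. The spread of HOXC11 between fetuses, 0.25, was close to the 0.24 between its 2 spots on the same array.

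HOXC4 and HOXC5 were the steadiest of the cluster. HOXC4 lay between 7.07 and 7.86 on all arrays and HOXC5 between 5.81 and 6.48, with all 4 groups overlapping for both. HOXC4 group means were 7.38 ± 0.24 (SD, n = 5) in GD100 controls, 7.50 ± 0.30 (n = 5) in GD100 BPA-exposed, 7.51 ± 0.19 (n = 4) in GD165 controls and 7.35 ± 0.22 (n = 3) in GD165 BPA-exposed uteri. For HOXC5 they were 5.98 ± 0.18, 6.12 ± 0.23, 6.05 ± 0.20 and 5.95 ± 0.08 with the same numbers of fetuses. Their differences for BPA at GD165 and with age in BPA-exposed fetuses changed sign in the data without scaling between arrays.

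HOXC13, at the tail end of the cluster, was well above background in GD100 BPA-exposed replicate 1 and in no other uterus. Both of its spots on that array were well above background, at a mean processed signal of 83.7, whereas its signal on the other 16 arrays was 2.34 to 6.46 and did not clear the background. The level on that array was at least 7.003-fold higher than the mean level of the others. For each of them the mean took the higher of its own level and the lowest signal that counted as well above background. The same uterus had the highest HOXC4, HOXC5, HOXC8, HOXC9 and HOXC10 levels of all 17. It was also the array with the most probes seen on 1 array only, 75 probes or 0.371% of all, against 1 to 56 on the others. Its summed signal over the 14 skeletal muscle markers on the array was 25624, against 15463 to 17177 in the other 4 GD100 BPA-exposed uteri, and over the 5 nerve markers it was 24415 against 7777 to 12910. HOXC13 was well above background in no GD165 uterus. There the skeletal muscle sums were 27051 to 211078 in controls and 23894 to 109715 in BPA-exposed uteri. The nerve sums were 16704 to 49279 and 12452 to 18052. The part of these tissues in the HOXC values was not tested. HOXC12 had signals of 2.23 to 4.01 on all arrays, not well above background in any of them, so no difference is given for it.

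The spread between fetuses of the same group separated the cluster into a middle and its edges. Within groups the SD was 1.04 for HOXC9, which exceeds that of 99.0% of the probes well above background on every array. It was 0.69 for HOXC6, 0.69 for HOXC10 and 0.60 for HOXC8, at percentiles 96.3, 96.3 and 94.4. For HOXC11, HOXC4 and HOXC5 it was 0.25, 0.25 and 0.19, at percentiles 62.4, 60.0 and 44.0. The SD between the 2 spots of an array, which does not hold the noise between arrays, was 0.12 for HOXC9, 0.032 for HOXC6, 0.16 for HOXC10 and 0.084 for HOXC8. For HOXC11, HOXC4 and HOXC5 it was 0.24, 0.20 and 0.12. The SD between fetuses was 1.05, 1.24 and 1.65 times the SD between spots for HOXC11, HOXC4 and HOXC5, against 4.23 to 21.5 times for the middle genes.

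**Figure D3:**
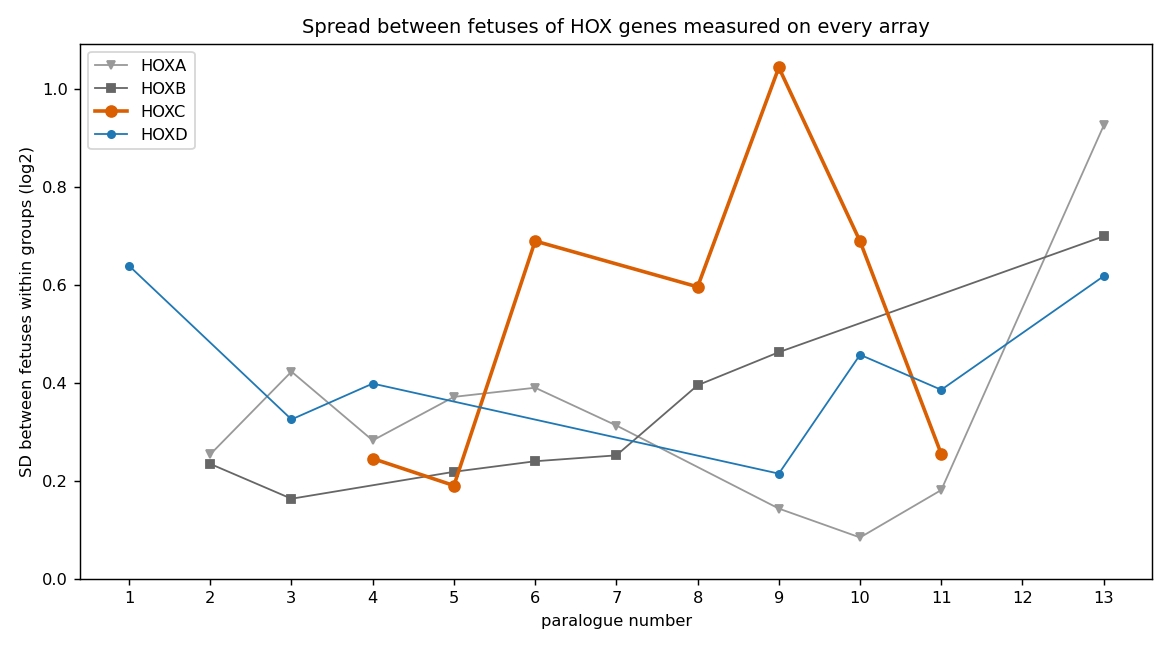
SD of log2 level between fetuses within groups, pooled over the 4 groups, for the HOX genes well above background on every array, by paralogue number and cluster. HOXC6, HOXC8, HOXC9 and HOXC10 lie between 0.60 and 1.04, while HOXC4, HOXC5 and HOXC11 lie at 0.19 to 0.25.

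HOXC6, HOXC8, HOXC9 and HOXC10 moved together from fetus to fetus. Over the 17 uteri Pearson's r was 0.93 for HOXC9 with HOXC10, 0.93 for HOXC8 with HOXC9 and 0.90 for HOXC6 with HOXC9. All 6 pairs of these 4 genes had r from 0.83 to 0.93 and Spearman's rho from 0.76 to 0.93. In permutation tests adjusted over the 21 pairs of the 7 genes, their p ran from 4.2e-05 to 0.00021 for r and from 5.25e-05 to 0.00245 for rho, and 1e-05 is the smallest unadjusted p that the 100000 permutations can give. With the 2 uteri farthest from the median of the first gene left out, r was 0.84 to 0.90. It was 0.78 to 0.93 within groups, 0.87 to 0.96 within slides, 0.76 to 0.95 over the 10 GD100 uteri and 0.91 to 0.96 over the 7 GD165 uteri. Slides held too few arrays for a value each. Without GD100 BPA-exposed replicate 1 the 6 values of r were 0.81 to 0.92. Each pair shares the array, its RNA and its scaling.

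**Figure D4:**
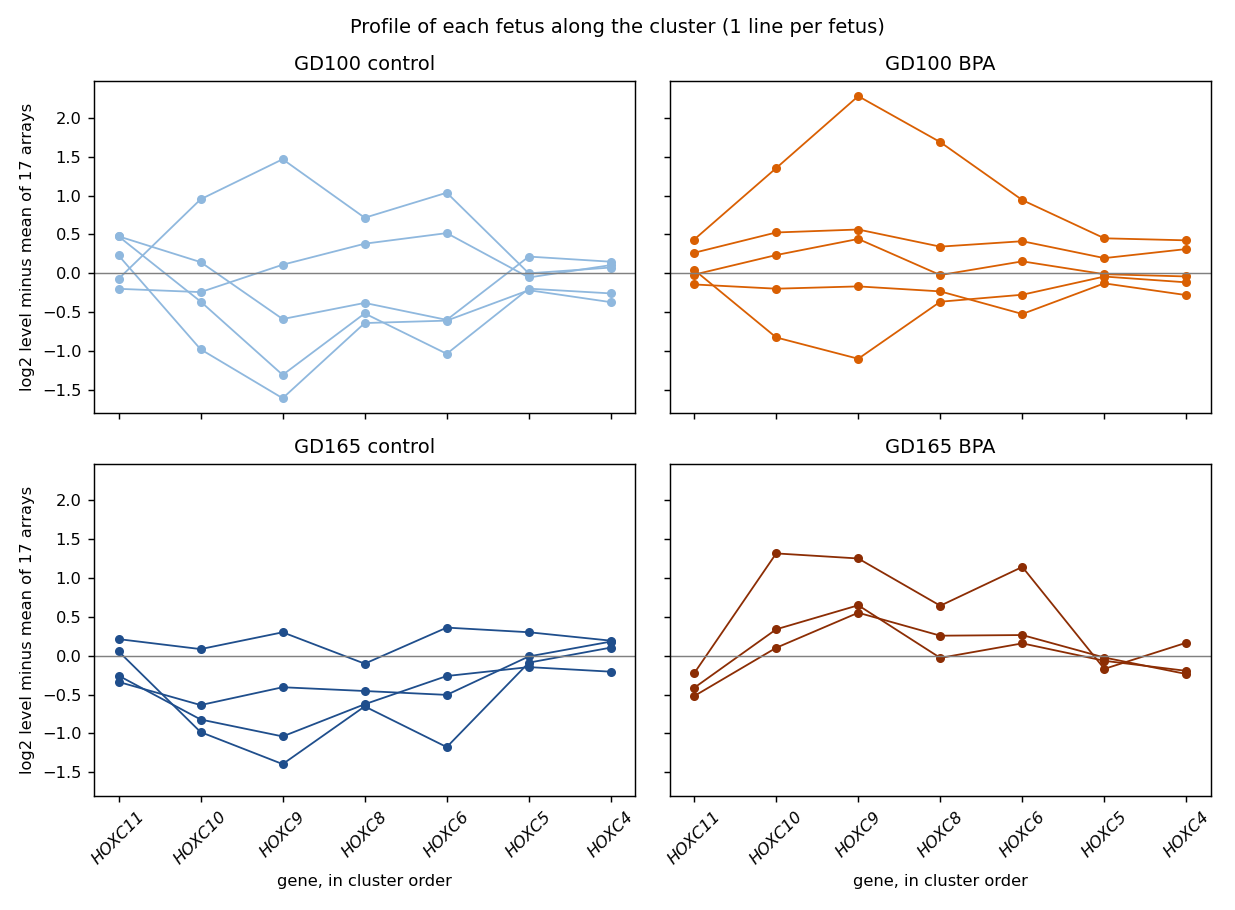
Log2 level of the 7 HOXC genes measured on every array minus each gene's mean over the 17 arrays, in cluster order, with 1 line per fetus and 1 panel per group. Lines run apart over HOXC10, HOXC9, HOXC8 and HOXC6 and close up at HOXC5 and HOXC4. All 3 GD165 BPA-exposed lines lie above 0 at HOXC9.

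The ends of the cluster followed this middle block less closely. HOXC4 and HOXC5 went with each other at r = 0.76 (rho 0.73, permutation adjusted p 0.00063 and 0.0030). With the 4 genes of the block they had r of 0.39 to 0.59, and the adjusted permutation p of these 8 pairs ran from 0.031 to 0.161 for r and from 0.103 to 0.145 for rho. For these pairs r was 0.57 to 0.81 at GD100 but -0.04 to 0.11 at GD165, a difference that was not tested, and 0.21 to 0.41 without GD100 BPA-exposed replicate 1. HOXC11 had r of -0.21 to 0.07 with the block, although its probe lies next to that of HOXC10, with adjusted permutation p of 0.482 to 0.885. HOXC6 and HOXC5 are also neighbours, their probes 4.23 kb apart in the files, and had r = 0.39, whereas HOXC6 and HOXC10, with 41.0 kb between the outer ends of their probes, had r = 0.83. SDs between fetuses and between spots were 0.25 and 0.24 for HOXC11, 0.25 and 0.20 for HOXC4, and 0.19 and 0.12 for HOXC5. Spot noise of this size can lower r, and its part in these values was not tested.

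**Figure D5:**
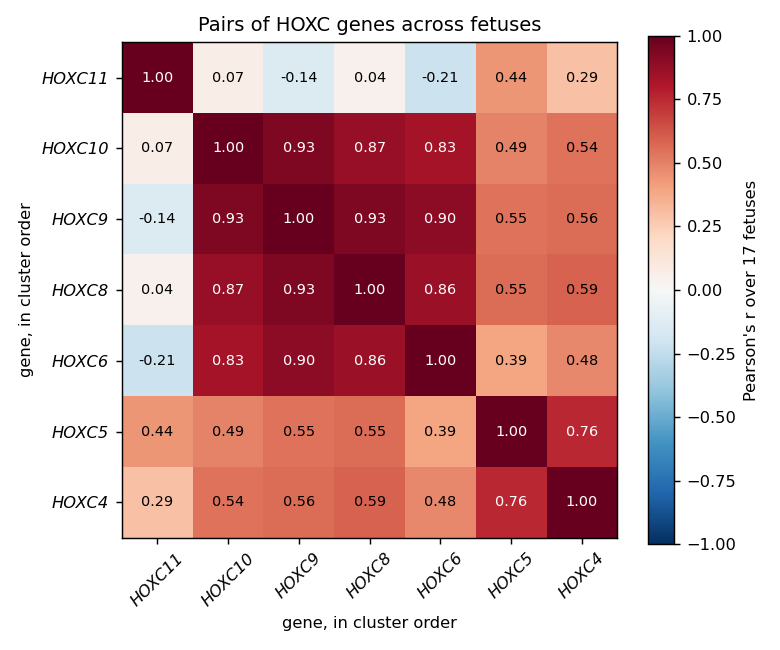
Pearson's r over the 17 fetal uteri between the log2 levels of the 7 HOXC genes measured on every array, both axes in cluster order. The 4 genes from HOXC10 to HOXC6 form a block at 0.83 to 0.93, HOXC5 and HOXC4 form a pair at 0.76, and HOXC11 has values from -0.21 to 0.44.

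The mean of the 4 genes, each centred on its own average, gave each fetus a place on a common scale. It averaged -0.18 ± 0.82 (SD, n = 5) in GD100 controls, 0.26 ± 0.85 (n = 5) in GD100 BPA-exposed, -0.52 ± 0.51 (n = 4) in GD165 controls and 0.56 ± 0.46 (n = 3) in GD165 BPA-exposed uteri. The GD165 controls reached up to 0.16 and the GD165 BPA-exposed uteri down to 0.28. The 4 genes were chosen after their values were seen, and HOXC8, HOXC9 and HOXC10 already did not overlap at GD165. This gap is therefore not separate evidence. GD100 fetuses of either treatment spanned a wider range, from -0.96 to 1.57.

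Markers of the cell types in the piece of tissue were set beside this mean, as a description over the 17 uteri. The 5 measured stroma and fibroblast markers had r = 0.47 with it, 0.51 within groups and 0.30 without the 2 fetuses farthest from its median. The 12 uterus and Müllerian markers had -0.34, the 7 smooth muscle markers -0.31 and the 5 epithelial markers -0.25. These values over the 17 uteri rested on 2 fetuses, since without the 2 farthest they were 0.10, -0.052 and -0.021. The other 7 lists lay between -0.07 and 0.25 over the 17 uteri. Within groups the uterus and Müllerian markers had r = -0.53, the smooth muscle markers -0.32 and the epithelial markers -0.076. Within groups r was 0.54 for cartilage and bone, 0.50 for endothelium, 0.49 for nerve, 0.49 for squamous epithelium, 0.48 for skeletal muscle, 0.39 for leukocytes and 0.12 for erythroid markers, so stroma was not alone in going with the HOXC mean. Over all groups without the 2 farthest fetuses, r was 0.56 for leukocytes, 0.33 for endothelium and 0.20 for cartilage and bone. It was 0.18 for skeletal muscle, 0.17 for squamous epithelium, 0.05 for erythroid and -0.06 for nerve markers. At GD165 the summed signal of the epithelial markers was 140464 to 171154 in controls and 95979 to 146642 in BPA-exposed uteri, and that of the stroma markers was 478752 to 684022 and 557744 to 638069. The 11 squamous epithelium markers on the array, 7 of them well above background on every array, had a median log2 difference of -1.12. They summed to 61981 to 164242 in GD165 controls and 59766 to 68198 in BPA-exposed uteri. The highest sum was that of control replicate 6 alone, and the other controls had 61981, 68656 and 76883. In limma 0 of the 11 passed the threshold, against 0.0% of all probes. At an unadjusted p under 0.05 there were 5 of 11, against 8.61% of all probes. The 5 nerve markers summed to 16704 to 49279 in GD165 controls, highest again in replicate 6, and to 12452 to 18052 in BPA-exposed uteri. The part of these cell types in the HOXC values was not tested. Among genes outside the cluster, the probes most like the mean of the 7 measured HOXC genes were BNC1, a zinc finger factor of squamous and germ cells, at r = 0.83, POSTN, the matrix protein periostin of fibroblasts, at 0.83, a pair of probes for STK31 at 0.79 and 0.78, and CPEB1, a regulator of mRNA translation, at 0.77.

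The HOXC genes had a wider median spread between fetuses than the genes of the other HOX clusters. The median SD within groups was 0.60 over the 7 measured HOXC genes, against 0.30 over 10 HOXA, 0.25 over 8 HOXB and 0.40 over 7 HOXD genes. This did not hold for every member, since HOXC4, HOXC5 and HOXC11 had 0.25, 0.19 and 0.25. Single genes of the other clusters also spread widely, up to 0.93 for HOXA13, 0.70 for HOXB13 and 0.64 for HOXD1, beside 1.04 for HOXC9. The median r between neighbouring measured genes was 0.81 in HOXC, 0.57 in HOXD, 0.31 in HOXB and 0.25 in HOXA. Within groups it was 0.79, 0.67, 0.28 and 0.31 in the same order. Single neighbour pairs ran from 0.07 to 0.93 in HOXC and from 0.008 to 0.79 in HOXD. They ran from -0.17 to 0.89 in HOXB and from -0.19 to 0.78 in HOXA. These are descriptions of the clusters, and the difference between them was not tested. At GD165, 0 genes of the other clusters passed the threshold for BPA in limma. Those with the smallest p were HOXA13 at -2.48, HOXA9 at 0.41 and HOXA10 at 0.23, HOXB3 at 0.28 and HOXB13 at -0.86, and HOXD3 at 0.91, HOXD13 at -1.54 and HOXD9 at 0.38, as log2 differences with adjusted p from 0.386 to 0.657, beside HOXB1, which was well above background on 1 array. HOXD3 had the highest r among these genes with the mean of the 4 HOXC genes, 0.76.

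With age, when 11.5% of all probes were called in controls and 9.68% in BPA-exposed fetuses, a count of 0 among 9 HOXC genes lay near these shares. The HOXA list had 2 of 11 genes called in controls and 1 of 11 in BPA-exposed fetuses, the HOXB list 4 and 3 of 9, and the HOXD list 0 of 8 in both. In controls HOXB2, HOXB5, HOXB6 and HOXB8 rose by 0.75, 0.60, 0.94 and 1.03 on the log2 scale and HOXA9 and HOXA10 fell by 0.42 and 0.42. In BPA-exposed fetuses HOXB2, HOXB5 and HOXB6 rose by 0.75, 0.66 and 1.08 and HOXA13 fell by 2.72. Among 9 TALE homeodomain proteins, which bind DNA together with HOX proteins, PBX3, PBX4 and MEIS1 fell in controls by 0.48, 1.05 and 0.55, and PBX4 fell by 0.99 in BPA-exposed fetuses. Of 15 regulators of HOX genes on the array, the Polycomb enzyme gene EZH2 fell by 1.06 and its paralogue EZH1 rose by 0.48 in controls. In BPA-exposed fetuses EZH2 and JARID2, a Polycomb partner, fell by 0.89 and 0.44 and EZH1 rose by 0.58. Genes named for only 1 treatment changed in the same direction in the other, short of the threshold. HOXB8, PBX3, MEIS1, HOXA9 and HOXA10 differed by 0.97, -0.40, -0.40, -0.17 and -0.12 in BPA-exposed fetuses. HOXA13 and JARID2 differed by -0.66 and -0.26 in controls. None of these lists (0 genes) had a call for BPA at either age.

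The genes that flank the cluster followed its middle block loosely or not at all. On the HOXC13 side 5 genes were on the array, and MAP3K12, TARBP2, NPFF, ATF7 and ATP5G2 had SDs within groups of 0.19 to 0.36 and r of -0.21 to 0.43 with the mean of the 4 HOXC genes. On the HOXC4 side 6 genes were on the array, with SDs of 0.13 for COPZ1 to 0.76 for GPR84 and r of -0.16 for ITGA5 to 0.08 for SMUG1. SMUG1, a DNA repair enzyme gene and the nearest of them, differed by -0.33 for BPA at GD165 (adjusted p 0.509 in limma). With age CBX5, a heterochromatin protein gene, was called in controls, where it fell by 0.51, and fell by 0.50 in BPA-exposed fetuses without a call. NFE2, a blood cell factor, was called in BPA-exposed fetuses, where it fell by 1.98, and fell by 1.13 in controls without a call.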

How the data were processed

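Per the labels and file headers, the authors hybridised Cy3-labelled cRNA to a 1-colour Agilent rhesus macaque array and read it with Agilent Feature Extraction 9.5 at its defaults. The deposited values are linear signal intensities after background subtraction and detrending, with signals not above background replaced by a small positive value, and with no scaling between arrays. Here log2 intensities of the 2 spots of each probe were averaged without outlier spots, and each array was scaled to its 75th percentile. Probes were named from their description, older symbols through the RefSeq table, and the members' symbols all matched.

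limma 3.58.1 in R 4.3.3 (lmFit, eBayes) was fitted to all 20217 probes and all 17 arrays in 4 groups, two-sided, with Benjamini-Hochberg adjustment and a threshold of 0.01, as the methods give. The methods' error-weighted ANOVA was not repeated. The alternatives held limma with weights from the scanner's error model and a test with that error only. The fit was tested on simulated data. Permutation tests used scipy 1.17.1. The number of arrays limits the precision. Fetuses were taken as replicates.

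The members and the gene lists were chosen with earlier results of these data known. Named genes were all members, the genes of each other list past the threshold plus up to 3 with the smallest p, and the 5 probes most like the cluster. Marker lists were those for uterus, smooth muscle, epithelium, squamous epithelium, skeletal muscle, leukocytes, erythroid cells, endothelium, stroma, cartilage and bone, and nerve. The 15 alternatives and the omission of each fetus are given at the end. The mean of HOXC6, HOXC8, HOXC9 and HOXC10 was formed after their values were seen.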

Additional observations from a re-analysis of the deposited data

Results flagged for a closer look

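HOXC13 stood at a log2 level of 6.51 in GD100 BPA-exposed replicate 1, far from the other 4 uteri of its group, whose gap to it took up 0.842 of the group's range against a critical value of 0.71. Its values in those 4 uteri were not above background and had been replaced by a small positive value. The gap was thus set by detection in 1 uterus, and the critical value gives no chance rate for it. In all, 22 sets of a gene and a group were checked in this way. Those for the other genes, where chance gives such a gap in about 1 of 20, gave none (0).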

How the results depend on the processing

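Of the 5 counts of called HOXC genes, all 0 in the main setting, each stayed at 0 under 14 of the 15 alternatives and with each of the 17 fetuses left out (lowest 0, highest 0). The exception was the test with the scanner's error only, which called 5 genes for BPA at GD165, 4 for BPA at GD100, 5 and 4 with age in controls and in BPA-exposed fetuses, and 4 in the interaction, among 4831, 3363, 9654, 10267 and 4663 of all probes. It leaves out the spread between fetuses by construction.

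Among 35 differences of the 7 measured genes, none of which was called (0), some changed sign. For BPA at GD165 the log2 difference of HOXC4 became 0.0036 without scaling and 0.077 with slide as a fixed block, and that of HOXC5 became 0.060 without scaling and 0.062 with quantile normalization. With slide as a fixed block HOXC4 became -0.027 for BPA at GD100, 0.12 with age in BPA-exposed fetuses and 0.10 in the interaction, and HOXC5 became -0.015 with age in controls, where quantile normalization gave -0.075. With age in BPA-exposed fetuses HOXC4 and HOXC5 became 0.037 and 0.0052 without scaling, and HOXC8 became -0.024 with normexp. HOXC10 with age in controls became 0.15 with the outlier spot kept. Leaving out 1 fetus moved HOXC11 for BPA at GD100 between -0.16 and 0.0080, HOXC8 with age in BPA-exposed fetuses between -0.16 and 0.36, and HOXC5, HOXC6 and HOXC9 with age in controls between -0.028 and 0.13, -0.51 and 0.039, and -0.56 and 0.22. It moved HOXC9 and HOXC10 for BPA at GD165 between 1.20 and 1.77 and between 0.81 and 1.42. The causes were not tested.

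Replicate numbers did not pair the fetuses, with correlations of -0.17 to 0.12 between same-numbered deviations. With the replicate number as a block no call changed in any of the 5 counts (0), the HOXC9 difference for BPA at GD165 was 2.54 (adjusted p 0.505 in limma) and that of HOXC10 1.87, and HOXC5 became 0.071 for BPA at GD165 and -0.0067 with age in controls. With 3 and 4 fetuses at GD165, the interval of the HOXC9 difference spanned 0, and HOXC12 and HOXC13 gave too little signal over background for any difference.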
